A study of Mus musculus with 28 samples.

Results

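The genes described here are 36 of the 22552 genes in each deposited table, named by symbol as components of fatty acid oxidation and the citric acid cycle. They comprise 4 genes of the carnitine shuttle, 13 of beta oxidation, 5 of fatty acid uptake, activation and acyl-CoA hydrolysis, 4 regulators and 10 of the citric acid cycle. Long-chain fatty acids are linked to coenzyme A by acyl-CoA synthetases, passed into mitochondria by the carnitine shuttle and shortened stepwise by beta oxidation, and the acetyl-CoA released is burned in the citric acid cycle. Peroxisome proliferator-activated receptors (PPARs) and their coactivator PGC-1alpha, encoded by Ppargc1a, drive transcription of many of these genes. In skeletal muscle stem cells (satellite cells), fatty acid oxidation is known as a main fuel of quiescence, and proliferating cells lean more on glycolysis.

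Polyadenylated RNA was sequenced from FACS-sorted satellite cells of wild-type (WT) mice on a C57Bl/6 background and of SIRT1mKO mice, in which a Pax7cre/+ knock-in allele removes a floxed exon 4 of Sirt1, the gene of an NAD-dependent deacetylase. Pax7 is a transcription factor of satellite cells, so Cre acts where Pax7 is or was expressed, and the labels do not say whether the WT mice carried Cre or a floxed allele. Quiescent cells were labelled FI, and proliferating cells Cul (Ham's F-10 containing bFGF at 12.5 ng/ml, with 20% fetal bovine serum). Differentiating cells were labelled Diff (24 hours in Ham's F-10 with 2% horse serum). The labels of the Diff samples also record 20% fetal bovine serum and bFGF at 12.5 ng/ml. There were 5 WT and 3 SIRT1mKO samples for FI, 4 WT and 2 SIRT1mKO for Cul, and 2 of each genotype for Diff. The labels name no animals, cultures or pools behind the replicates, so the p-values reflect only how far samples of a group differ, and that difference may be technical.

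The 18 libraries were deposited in 4 tables: SIRT1mKO against WT in FI (3 and 3 libraries), in Cul (2 and 2) and in Diff (2 and 2), and a table of WT states with 2 other FI and 2 other Cul libraries of WT. The Cul table and the table of WT states mark proliferating cells only by the letter A, read as Cul because the other states were accounted for. Each library carries an index (0, 1 or 2) in its table, used below as its name. Raw fragments per library ranged from 24254119 to 31643216 in the table of WT states, 28010691 to 65324684 in FI, and 71858446 to 82825550 in Cul and Diff. Sirt1, summed over the gene, was 81.4, 50.6 and 47.4 CPM (counts scaled to library size by TMM factors) in the WT FI libraries and 63.4, 37.6 and 44.3 in SIRT1mKO, lower at each index but overlapping. In Cul, Sirt1 was 62.2 and 66.8 CPM in WT and 33.8 and 46.9 in SIRT1mKO, without overlap, and in Diff 52.1 and 28.2 against 41.4 and 28.8. A total over the gene cannot show whether exon 4 is lost.

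Libraries stood apart in ways that touch the members. In the table of WT states, the FI libraries held 1985 to 2189 CPM summed over 7 satellite cell markers and 10833 to 17094 over 6 fibroblast markers, whereas the 6 libraries of the FI table held 4707 to 6523 and 3726 to 4928. Its Cul library 0 held 3411 CPM over 7 muscle differentiation markers and its Cul library 1 held 64.6. In the Diff table the same list summed to 125 CPM (WT) and 303 (SIRT1mKO) at index 0 but 11090 and 23658 at index 1. Finally, 6 libraries, the 4 of WT states and both at index 0 of the FI table, had 7.23 to 8.18% of their fragment values not whole, against 1.42 to 2.82% in the other 12. In those 6 libraries Hadhb, the beta subunit of the mitochondrial trifunctional protein, was 5.61 to 18.4 CPM on a scale joined over tables, below its 65.0 to 212 CPM in the other 12. Suclg2, a subunit of succinyl-CoA ligase, was 16.0 to 29.0 CPM in the 6 libraries and 47.8 to 132 in the others, so both genes are left out of the counts across tables below. In bulk RNA, fewer cells of a type and less RNA per cell cannot be told apart.

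Levels can be compared between members only per transcript length, as the deposited FPKM. Mdh2, the mitochondrial malate dehydrogenase, had the highest FPKM of all members in WT cells of the FI table (148 ± 32.6, SD, n = 3), the Cul table (432 ± 126, n = 2) and the Diff table (575 ± 206, n = 2). In WT FI it was followed by Idh3b, a subunit of NAD-dependent isocitrate dehydrogenase, at 119 ± 16.3 FPKM. In the table of WT states, Ech1, an auxiliary isomerase of beta oxidation, led in FI at 209 ± 36.9 FPKM (n = 2), ahead of Mdh2 at 172 ± 0.51. In WT cells of the FI table Ppargc1a was lowest (1.09 ± 0.29 FPKM), next to Ppara (1.37 ± 0.21), Cpt1b (1.82 ± 0.18) and Acot11 (4.02 ± 0.46). In FI of the table of WT states the lowest was Ppara (1.03 ± 0.10), then Ppargc1a (2.42 ± 1.25). In WT Cul cells Ppargc1a stood at 0.0952 ± 0.0399 FPKM in the Cul table and 0.58 ± 0.33 in the table of WT states. The members therefore spanned more than 2 orders of magnitude within a state.

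The table of WT states asks how the members differ between quiescent and proliferating WT cells. Cpt1b (carnitine shuttle), Acsl1 (acyl-CoA synthesis), Acot11 (acyl-CoA hydrolysis) and Ppara (a regulator) were lower in Cul, and the acyl-CoA synthetase Acsl4 was higher. Most citric acid cycle genes had higher values in Cul, but none of them passed this test. Of 35 members tested, edgeR's quasi-likelihood test called 5 at an adjusted p under 0.05, 1 higher and 4 lower, where it called 28.6% of all 14680 genes (12.6% higher and 16% lower). The share of members called, 5 of 35, was thus no larger than that of all genes. The median log2 change of the members was 0.10, and that of all genes 0.06. Leaving out 1 library changed which members were called and how many genes of all were called. The members' median was -0.34 without Cul library 0 and 0.34 without Cul library 1, beside -0.07 and -0.12 for all genes. Without FI library 0 or FI library 1 the members' median was 0.15 and 0.21, beside 0.08 and 0.10 for all genes. DESeq2 called 11 members (3 higher, 8 lower) and 39.3% of all genes, and edgeR with the table index as a block called 11 members and 42.1% of all genes. The index was not taken as a pairing in this table, so the block calls rest on an unsettled match of libraries. With upper-quartile factors, 7 members were called, all lower, beside 4064 of 14680 genes. These factors moved the median of all genes from 0.06 to -0.11, and the members' median was -0.07.

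**Figure D1:**
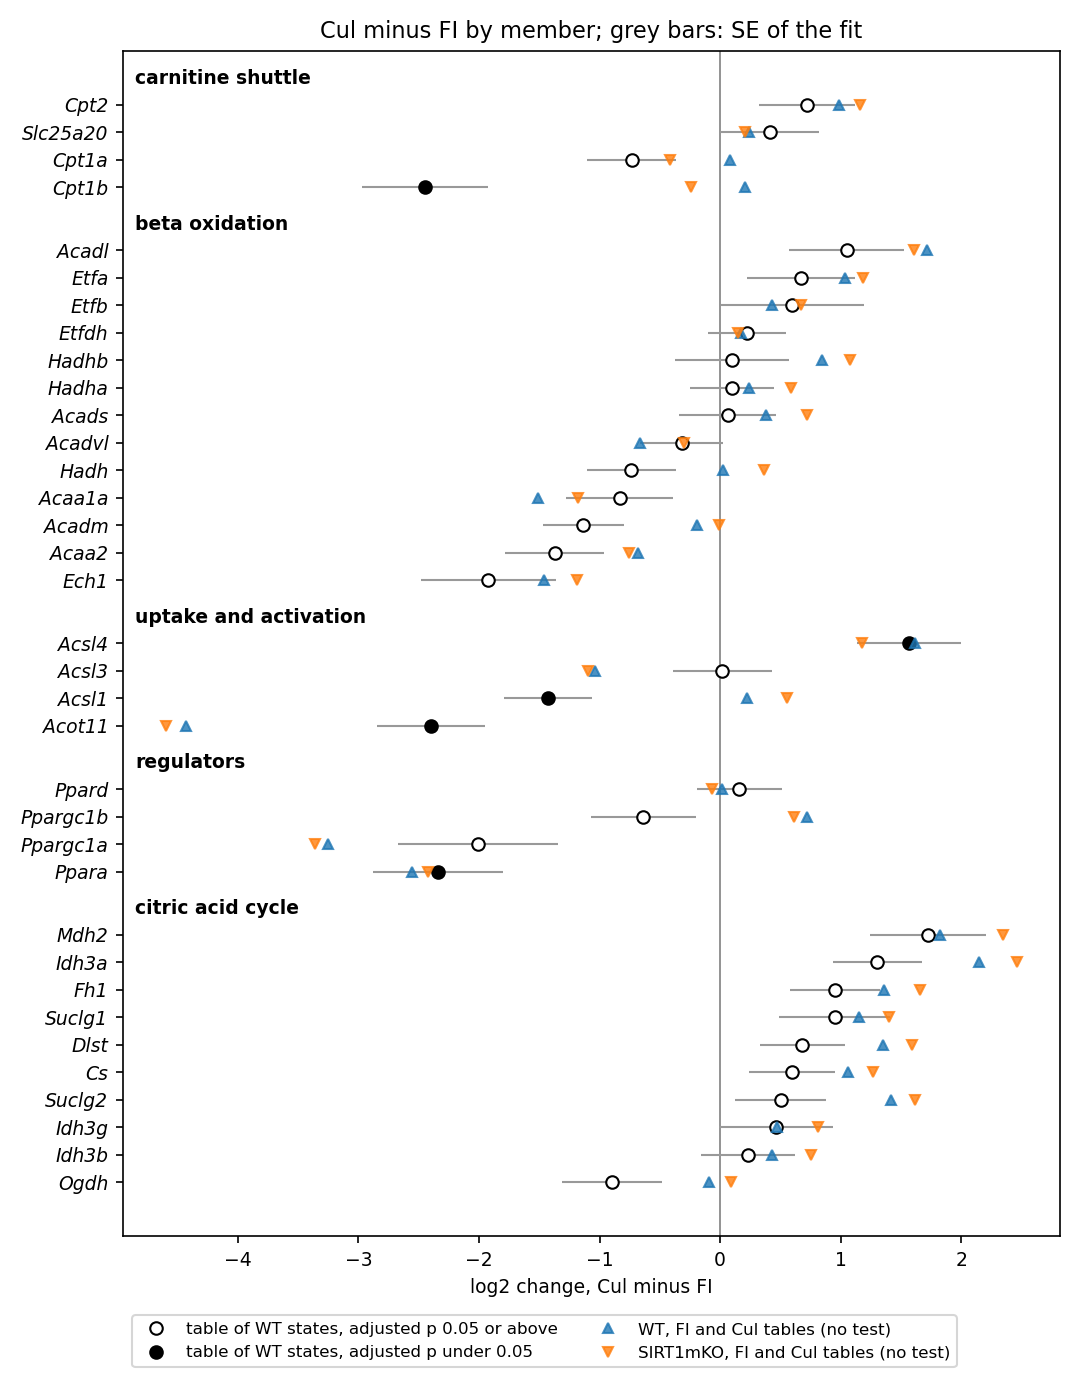
Log2 change from FI to Cul for the members, by role. Circles are the fitted change in the table of WT states with its standard error (filled where the edgeR adjusted p is under 0.05), and triangles are the differences between the Cul and FI tables for WT (blue) and SIRT1mKO (orange), which have no test. The 8 citric acid cycle genes other than Ogdh and Suclg2 (low in FI libraries of 1 kind) lie above 0 in all 3 readings, and Cpt1b and Acsl1 lie far below 0 in the table of WT states only.

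At the entry to the pathway, Cpt1b, the muscle isoform of the rate-limiting carnitine palmitoyltransferase of the outer mitochondrial membrane, was 19.5 and 36.2 CPM in FI and 6.24 and 3.99 in Cul. Both Cul libraries lay below both FI libraries, and the fitted change was -2.45 ± 0.52 on the log2 scale (SE), a 5.45-fold lower level (edgeR adjusted p = 0.0277). The other libraries did not show this gap: on the joined scale, Cpt1b was 4.32 to 5.95 CPM in the 6 libraries of the FI table and 3.95 to 6.85 in the 4 of the Cul table. Hence the FI libraries of WT states, at 18.3 and 34.6 CPM on that scale, were the ones that stood apart. The liver-type isoform Cpt1a, at 185 and 252 CPM in FI and 116 and 147 in Cul, changed by -0.73 ± 0.37 (adjusted p = 0.187). Cpt2, which rebuilds acyl-CoA inside the mitochondrion, was 24.7 and 19.5 CPM in FI and 43.8 and 29.0 in Cul, a change of 0.72 ± 0.40 (adjusted p = 0.22). Slc25a20, the carnitine-acylcarnitine carrier of the inner membrane, overlapped between the states.

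Among the genes of fatty acid uptake, activation and acyl-CoA hydrolysis, Acot11 was 18.2 and 19.4 CPM in FI and 2.88 and 4.24 in Cul. Acot11 is a thioesterase that hydrolyses acyl-CoA back to free fatty acid. Its change of -2.40 ± 0.45 (adjusted p = 0.0204) had the smallest p of the members. Outside that table the gap was wider, with 18.9 to 23.5 CPM in WT FI and 0.73 to 1.27 in WT Cul on the joined scale. Acsl1, the long-chain acyl-CoA synthetase tied to oxidation in muscle and fat, was 52.4 and 73.6 CPM in FI and 21.3 and 25.5 in Cul (log2 change -1.43 ± 0.37, adjusted p = 0.0416). Like Cpt1b, Acsl1 was not higher in FI elsewhere: the FI table held 15.5 to 22.9 CPM and that of Cul held 20.6 to 27.3. Acsl4, the synthetase that prefers arachidonate, moved the other way, from 57.6 and 81.7 CPM in FI to 154 and 258 in Cul (1.57 ± 0.43, adjusted p = 0.0492), a call lost with upper-quartile factors (adjusted p = 0.0589) and with limma on log2(FPKM + 1). It was also higher across the other tables, at 48.6 to 51.4 CPM in the 6 FI libraries and 103 to 196 in the 4 Cul libraries. Acsl3, the synthetase of lipid droplets and endoplasmic reticulum, overlapped between states.

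Cd36, the membrane receptor that takes up long-chain fatty acids, could not be tested in the table of WT states because its value in FI library 0 carries a failed status from the authors' software. Its deposited raw fragments there were 8345 (failed) and 12107 in FI and 148 and 255 in Cul. On the joined scale Cd36 was 103 to 343 CPM in the 6 libraries of the FI table and 0.067 to 0.48 in the 4 of the Cul table. Cd36 is also abundant in capillary endothelium, and endothelial markers moved with it. The 8 endothelial genes summed to 255 to 908 CPM in the FI table and 6.07 to 12.7 in the Cul table, with all 8 at 1 CPM or more in each FI library. Among WT FI libraries, Cd36 was lowest in library 1 (116 CPM) and highest in library 2 (382), as were the endothelial sums (255 and 908). The leukocyte sums (146 and 352) and the adipocyte sums (75.4 and 280) were so too, and Fabp4 is on both the endothelial and adipocyte lists. The satellite cell, fibroblast, muscle differentiation and erythroid sums were not highest in library 2. The part of endothelial, leukocyte or adipocyte RNA in the Cd36 level was not tested.

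Of the regulators, Ppara, the PPAR best known for switching on fatty acid oxidation, fell by 2.34 ± 0.54 on the log2 scale (adjusted p = 0.0324). Its libraries stood at 7.37 and 8.33 CPM in FI and 1.16 and 1.93 in Cul, and limma called it neither on log2(FPKM + 0.1) (adjusted p = 0.0609) nor on log2(FPKM + 1). Ppara was also low in Cul in the other tables, 8.29 to 11.1 CPM in the 6 FI libraries against 0.389 to 2.83 in the 4 Cul libraries. Ppargc1a was 10.4 and 22.2 CPM in FI and 2.40 and 5.70 in Cul, a change of -2.01 ± 0.66 that missed the threshold (adjusted p = 0.0753). It too separated in the other tables, where FI libraries held 4.89 to 8.47 CPM and Cul libraries 0.509 to 0.898. Ppard, the PPAR form widespread in muscle, overlapped between states in the table of WT states. Ppargc1b, the related coactivator, differed in sign between tables, at -0.64 ± 0.44 in WT states and 0.72 between the WT libraries of the FI and Cul tables.

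The beta oxidation genes did not move as one: 7 of 13 were above 0 and 6 below, with a median of 0.06 and no call. Without overlap between states, 3 were higher and 6 lower, where 70.9% of all genes did not overlap (35.5% higher and 35.4% lower). Ech1, which acts on unsaturated acyl chains, was 186 and 237 CPM in FI and 80.8 and 30.7 in Cul (-1.92 ± 0.56, adjusted p = 0.0563). The FI table (86.1 to 102 CPM) and the Cul table (31.9 to 44.1 CPM) differed in the same direction. Acadm, the medium-chain acyl-CoA dehydrogenase, narrowly missed the threshold at -1.13 ± 0.34 (adjusted p = 0.0576). Acaa2, the mitochondrial thiolase, did so at -1.37 ± 0.41 (adjusted p = 0.0604). DESeq2, upper-quartile factors and the index block each called Ech1, Acadm and Acaa2 lower (block adjusted p = 0.0162, 0.0311 and 0.0204), though the index was not taken as a pairing here. By contrast Acadl, the long-chain dehydrogenase, was 94.6 and 114 CPM in FI and 294 and 138 in Cul (1.05 ± 0.48, adjusted p = 0.153). Acadl was well separated in the other tables, at 46.8 to 59.2 CPM in FI libraries and 132 to 199 in Cul libraries. Genes of successive steps of the spiral therefore lay on both sides of 0, and Hadha, Acads and Hadhb, with changes of 0.10, 0.06 and 0.10, lay near it.

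In the citric acid cycle, 9 of 10 genes were above 0 with a median of 0.64, where 7576 of all 14680 genes were above 0. Without overlap, 7 were higher and 1 lower, where 70.9% of all genes did not overlap (35.5% higher and 35.4% lower). None passed the threshold of the main test. Mdh2 came closest, at 201 and 201 CPM in FI and 889 and 438 in Cul (1.72 ± 0.48, adjusted p = 0.0506). Idh3a, the catalytic subunit of isocitrate dehydrogenase, was 98.8 and 127 CPM in FI and 310 and 246.5 in Cul (1.3 ± 0.37, adjusted p = 0.0508). DESeq2 and the index block each called Mdh2 and Idh3a higher (block adjusted p = 0.0167 and 0.0236), and neither was called with upper-quartile factors. For these genes too, the block rests on an index that was not taken as a pairing. Fumarase (Fh1), Suclg1, the alpha subunit of succinyl-CoA ligase, and Dlst, the E2 subunit of the oxoglutarate dehydrogenase complex, had changes of 0.95, 0.95 and 0.68. Citrate synthase (Cs), the entry enzyme, was 294 and 320 CPM in FI and 505 and 420.5 in Cul (0.59 ± 0.36, adjusted p = 0.256). Ogdh, the E1 subunit of the oxoglutarate complex, was the exception at 313 and 432 CPM in FI and 160 and 241 in Cul (-0.90 ± 0.41, adjusted p = 0.156). The levels in Cul library 0, which carried the muscle differentiation markers, exceeded those in Cul library 1 for most cycle genes, among them Mdh2, Idh3g (284 against 134 CPM) and Suclg1 (215 against 102 CPM). Without that library, the changes of Idh3b and Idh3g turned to -0.19 and -0.23. The part of differentiating cells in these values was not tested.

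A comparison across the other tables gave the cycle the same direction, though state and table cannot be told apart there. No median or share over all genes was computed for differences across tables. Between the Cul and FI tables, without Suclg2, 8 of 9 cycle genes were higher in WT Cul with a median of 1.15, and 9 of 9 in SIRT1mKO Cul with a median of 1.40. Idh3a, at 48.8 to 78.1 CPM in the 6 FI libraries, reached 200.5 to 349.8 in the 4 Cul libraries. Mdh2 was 128 to 196 CPM in those FI libraries and 429 to 811 in Cul. Over the members with 3 such readings (WT states, WT across tables, SIRT1mKO across tables), Hadhb and Suclg2 left out, 17 of 33 were higher in Cul in each, 8 were lower in each and 8 differed in sign. The 8 lower ones were Acadm, Acadvl, Acaa1a, Acaa2, Ech1, Acot11, Ppara and Ppargc1a.

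**Figure D2:**
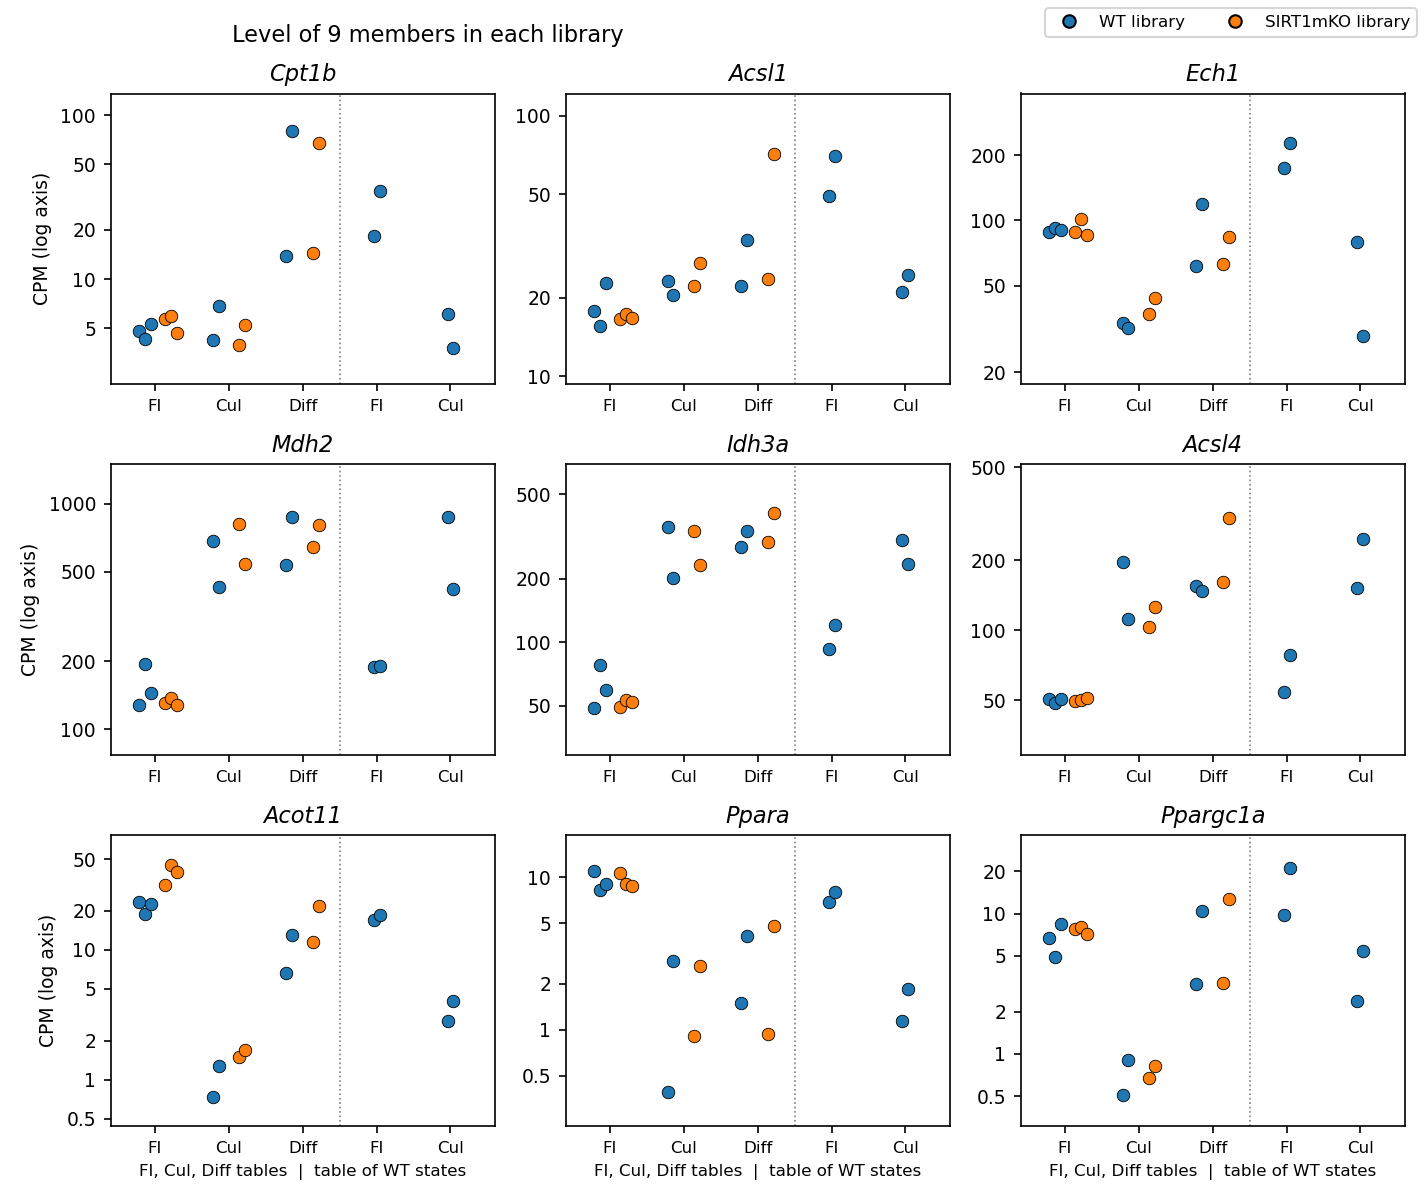
CPM on a log axis for 9 members in each of the 18 libraries, scaled together over tables. Left of the dotted line stand the FI, Cul and Diff tables and right of it the table of WT states, with WT in blue and SIRT1mKO in orange. Acot11 and Ppara are low in every Cul library. Ppargc1a is low in the Cul table, but its higher Cul library of WT states lies within the range of the FI table. Cpt1b and Acsl1 are high in the FI libraries of WT states but not in those of the FI table.

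Promoter sequences from RefSeq (GRCm38.p6) were found for 32 of the 36 members, with the 250 bases before each start searched on both strands. The estrogen-related receptor element TCAAGGTCA was in no member (0.422% of 27025 genes hold it), nor was the direct repeat of PPAR with 1 spacer base (0.041% of genes). The NRF1 element, a palindrome bound by a regulator of nuclear genes for mitochondrial proteins, was in 2 members, Ppara and Etfdh, and in 0.877% of all genes. The members' windows held more CpG than those of all genes (median 14 against 6), so that share is not a matched background for an element that contains CpG. Ppara was among the members lower in Cul, while Etfdh, the oxidoreductase that passes electrons from beta oxidation to ubiquinone, was at 0.22 ± 0.32. Both are printed with the element in capitals, Ppara on chr15:85735526-85735775 (plus strand) and Etfdh on chr3:79628768-79629017 (minus strand). Mdh2, the member nearest to a call among the cycle genes, is shown on chr5:135778399-135778648 (plus strand). Its capitals mark 3 copies of a 10-base palindrome, starting at positions -190, -63 and -29 from the start. That palindrome was looked for only after the window was read, and 0.448% of genes hold it, with no other member among them.
Ppara: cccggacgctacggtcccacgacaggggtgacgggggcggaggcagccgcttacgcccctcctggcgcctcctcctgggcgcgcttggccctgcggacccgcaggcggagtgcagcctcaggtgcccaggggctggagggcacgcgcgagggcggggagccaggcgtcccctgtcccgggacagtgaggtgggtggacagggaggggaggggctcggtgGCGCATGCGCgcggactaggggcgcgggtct
Etfdh: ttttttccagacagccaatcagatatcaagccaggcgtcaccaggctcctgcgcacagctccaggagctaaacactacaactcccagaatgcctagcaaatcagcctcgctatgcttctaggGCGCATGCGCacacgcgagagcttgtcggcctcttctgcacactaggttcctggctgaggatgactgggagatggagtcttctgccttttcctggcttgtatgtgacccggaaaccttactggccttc
Mdh2: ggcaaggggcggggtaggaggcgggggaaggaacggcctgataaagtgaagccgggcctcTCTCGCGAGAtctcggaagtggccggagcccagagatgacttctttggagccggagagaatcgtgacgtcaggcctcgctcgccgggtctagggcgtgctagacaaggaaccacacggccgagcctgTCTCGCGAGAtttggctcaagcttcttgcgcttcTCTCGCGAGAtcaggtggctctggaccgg

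The other genes of the pathway, 45 in a fixed list of which 44 were tested, gave 3 higher and 5 lower calls in the table of WT states, a smaller share than the 28.6% of all genes. Acacb, the acetyl-CoA carboxylase whose malonyl-CoA blocks carnitine palmitoyltransferase 1, was 33.1 and 42.3 CPM in FI and 2.16 and 3.23 in Cul (-3.80 ± 0.46, adjusted p = 0.0117). Ehhadh, the bifunctional enzyme of peroxisomal oxidation, changed by -2.67 ± 0.58 (adjusted p = 0.0287), Lpl, the lipase that frees fatty acids from lipoproteins, by -2.18 ± 0.39 (adjusted p = 0.0189), and the carnitine importer Slc22a5 by -1.80 ± 0.43 (adjusted p = 0.0348). Higher in Cul were the lipid droplet coat gene Plin2 (2.13 ± 0.41, adjusted p = 0.0219), the mitochondrial transcription factor Tfam (1.41 ± 0.33, adjusted p = 0.0331) and the synthetase Acsl5 (1.39 ± 0.33, adjusted p = 0.0335). The 10 further citric acid cycle genes had no call and a median of 0.19. The FI libraries of WT states also held 274 to 309 CPM summed over 6 adipocyte markers, most of it Fabp4, which is on the endothelial list too (255 and 245 CPM on the joined scale), against 18.8 to 26.5 in Cul. Adipoq, an adipocyte-defining gene, was 19.7 and 2.18 CPM in those FI libraries and at most 0.0395 in those Cul libraries. Of the 6 adipocyte markers, 4 were at 1 CPM or more in each of those FI libraries. Lep was at 0 in FI library 0 and Cidec at 0 in FI library 1. Fibroblast markers summed to 774 to 1103 CPM and endothelial markers to 56.4 to 88.7 in those Cul libraries, against 10833 to 17094 and 590 to 614 in FI. The part of such cells in the lower calls was not tested.

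The next 3 comparisons ask how the members differ between SIRT1mKO and WT cells in each state. No member was called in FI, Cul or Diff by edgeR, which also called 0% of all genes tested in each. At an unadjusted p under 0.05, 621 of 15146 genes passed in FI, 112 of 13963 in Cul and 27 of 14482 in Diff, and DESeq2 called 117, 3 (0.0215%) and 0. With the table index as a block, edgeR called 0% of genes in FI, 0.0215% in Cul and 1.02% in Diff, again with no member. The median log2 change of the 36 members was -0.05 in FI, 0.09 in Cul and 0.04 in Diff, beside -0.03, 0.02 and -0.01 for all genes.

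**Figure D3:**
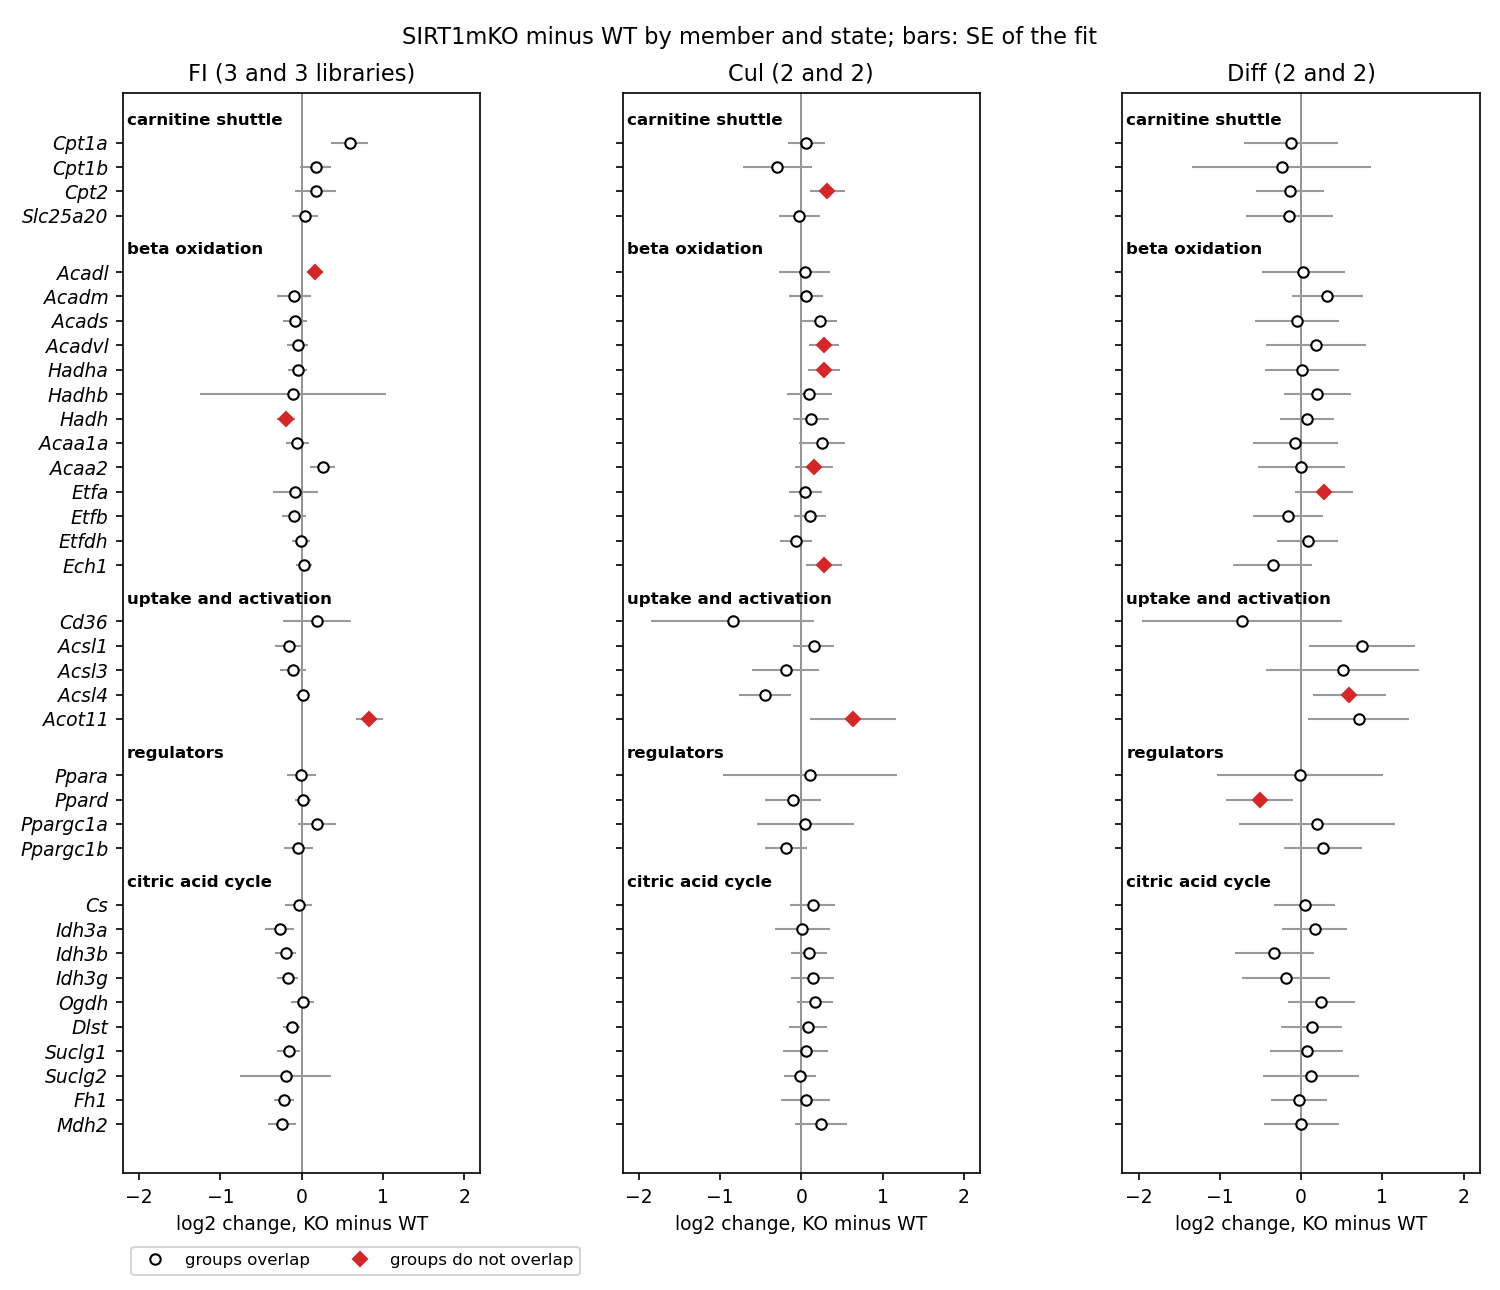
Log2 change from WT to SIRT1mKO for the 36 members in FI, Cul and Diff, with the standard error of the fit. Red diamonds mark members whose groups do not overlap (3 in FI, 6 in Cul, 3 in Diff). Acot11 lies to the right of 0 in each state, at 0.83, 0.63 and 0.71.

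In FI, Acot11 had the smallest p of the members. Its libraries stood at 26.0, 21.1 and 25.1 CPM in WT and 34.9, 49.5 and 44.1 in SIRT1mKO, with every SIRT1mKO library above every WT library. The change was 0.83 ± 0.17 (edgeR adjusted p = 0.592). DESeq2 called it (adjusted p = 0.00997), the only member it called, where it called 0.772% of all genes. Across alternatives and left-out libraries, the change of Acot11 ran from 0.69 to 1.03.

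Cpt1a was second, at 166, 129 and 102 CPM in WT and 153, 226 and 218 in SIRT1mKO, a change of 0.59 ± 0.23 (adjusted p = 1). The groups overlapped, because at index 0 the SIRT1mKO library was the lower one (-0.11), while at index 1 and 2 it was higher by 0.81 and 1.10. With both libraries of index 0 left out, a check added after the values were seen, the change was 0.95. Next by p were Acadl (0.17 ± 0.09), Fh1 (-0.22 ± 0.12), Acaa2 (0.26 ± 0.15) and Hadh, the short-chain hydroxyacyl-CoA dehydrogenase (-0.19 ± 0.11). Acadl and Acot11 were higher and Hadh lower without overlap, 3 of 36 members, where 9.22% of all genes did not overlap (5.57% higher and 3.65% lower). Ppargc1a (0.18 ± 0.23) and Cpt1b (0.17 ± 0.19) differed by less than their standard errors.

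By role, all 4 carnitine shuttle genes were above 0 in FI (median 0.17), 3 of 13 beta oxidation genes were, and 1 of 10 citric acid cycle genes was (median -0.18). Of all genes, 6771 of 15146 were above 0. All 10 cycle genes overlapped between genotypes. WT library 1 was the highest of all 6 for 9 of them, Mdh2 for instance at 219 CPM there against 142 and 162 in the other WT libraries and 142 to 153 in SIRT1mKO. Among the other pathway genes none was called. The smallest p belonged to Acsl6, an acyl-CoA synthetase (0.89 ± 0.23, adjusted p = 0.822), Slc27a1, a fatty acid transporter of muscle (0.83 ± 0.22, adjusted p = 0.822), and the PPAR target Angptl4, an inhibitor of lipoprotein lipase (0.79 ± 0.23, adjusted p = 0.89). Slc27a1 stood at 109, 116 and 74.9 CPM in WT and 146, 217 and 171 in SIRT1mKO, and the SIRT1mKO libraries were above the WT libraries for all 3 genes. DESeq2 with the index as a block, added after the values were seen, called Slc27a1 (adjusted p = 0.00221) and Angptl4 (adjusted p = 0.00616).

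In Cul, the beta oxidation genes lay slightly above 0: 12 of 13, with a median of 0.12 and none called (largest 0.28). Of all genes, 7429 of 13963 were above 0. Without SIRT1mKO library 0 or WT library 1, the median of the 36 members was -0.011 and -0.023. Without overlap, 6 of 36 members were higher in SIRT1mKO and none lower, where 11.8% of all genes were higher and 11.1% lower in this way (23% in all). They included Acadvl, the very-long-chain dehydrogenase, at 59.6 and 60.3 CPM in WT and 74.1 and 71.5 in SIRT1mKO (0.28 ± 0.19), and Cpt2, at 25.1 and 21.3 against 30.6 and 27.4 (0.32 ± 0.22). Hadha, the alpha subunit of the trifunctional protein, was 143 and 131 CPM in WT and 177 and 154 in SIRT1mKO (0.27 ± 0.20). Ech1 (0.28 ± 0.22), Acaa2 and Acot11 (0.63 ± 0.53) were the other 3, and Acot11 was near its lowest level here, 0.63 and 1.12 CPM against 1.23 and 1.48. Acsl4 was lower in SIRT1mKO with overlap (-0.45 ± 0.33). Cpt1a (0.06 ± 0.23), Ppargc1a (0.05 ± 0.60, at 0.44 to 0.79 CPM) and Cpt1b (-0.30 ± 0.42) overlapped, and each changed sign when 1 library was left out. The edgeR adjusted p was 1.00 for every member in Cul and Diff. Of the other pathway genes, Lpl had the smallest p, at 41.7 and 46.7 CPM in WT and 28.2 and 30.2 in SIRT1mKO (-0.60 ± 0.20), followed by Angptl4 (0.45 ± 0.23) and Ucp2, a mitochondrial carrier (0.44 ± 0.36). Lpl was called lower under an alternative setting, but neither in the main fit nor by edgeR with the index block (adjusted p = 0.187).

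In Diff, Acsl4 had the smallest p of the members. It was 138 and 140 CPM in WT and 144 and 276 in SIRT1mKO, without overlap (0.60 ± 0.45). Ppard was 76.1 and 75.1 CPM in WT and 67.2 and 39.3 in SIRT1mKO, lower without overlap (-0.51 ± 0.41). For both genes SIRT1mKO library 1 lay farthest from the WT libraries. Acot11 was 5.91 and 12.4 CPM in WT and 10.2 and 19.7 in SIRT1mKO (0.71 ± 0.62), higher at each index though the groups overlapped. Acsl1 (0.75 ± 0.66), Etfa, a subunit of the electron transfer flavoprotein (0.29 ± 0.36, no overlap), and Acadm (0.32 ± 0.44) came next by p. In all, 3 of 36 members did not overlap, beside 13.2% of all genes (6.39% higher and 6.85% lower). Cpt1a (-0.12 ± 0.58), Ppargc1a (0.19 ± 0.96) and Cpt1b (-0.24 ± 1.10) overlapped, and these 3, Acsl1 and Acadm changed sign when 1 library was left out. Of the other pathway genes, Plin2, at 582 and 436 CPM in WT and 377 and 136 in SIRT1mKO, had the smallest p (-0.99 ± 0.60), then Slc27a1 (-0.63 ± 0.44) and Acsl6 (1.5 ± 1.1).

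Matching libraries by their index within a table gave 7 pairs of SIRT1mKO and WT over the 3 states. Only in FI was the index taken to pair the libraries. In Cul and Diff, libraries of the same index also deviated together (correlation 0.81 in each). With 2 libraries per group that is only 1 value, so these matches are not settled. Acot11 was higher in SIRT1mKO in 7 of 7 pairs, by 0.40 to 1.23 on the log2 scale. It was the only member of 36 for which this held, and the share of all genes was not computed. In Diff this depends on the matching, because SIRT1mKO library 0 (10.2 CPM) lay below WT library 1 (12.4 CPM). Since the members were compared only after their values were known, that count is a description. Cpt2, Acadl, Acaa2 and Ogdh were higher in 6 of 7 pairs, and no member was lower in all 7. Whether the effect of genotype differed between states was tested directly, with edgeR on the joined FI, Cul and Diff tables. No member passed for any pair of states, beside 0% of 16698 genes. The smallest p was that of Acsl4 between Diff and Cul (difference 1.04, edgeR adjusted p = 1). For Acot11 the effect in Cul differed from that in FI by -0.17 (edgeR adjusted p = 1).

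Within the differentiating cells, the larger contrast was between the libraries rather than the genotypes. From index 0 to index 1, 32 of 36 members were higher in both genotypes (5637 of 14482 genes were), and the muscle differentiation markers were too. This is a description of 2 libraries per genotype, and the genes named were chosen for their size. Cpt1b was 12.4 CPM at index 0 and 75.5 at index 1 in WT, and 12.8 and 61.7 in SIRT1mKO, the largest difference among the carnitine shuttle genes. Acsl3 went from 92.6 to 347 CPM in WT and from 119 to 508 in SIRT1mKO. Ppargc1a went from 2.81 to 9.86 CPM in WT and from 2.87 to 11.6 in SIRT1mKO. All 13 beta oxidation genes were higher at index 1 in both genotypes (median log2 differences 0.75 in WT and 0.55 in SIRT1mKO), led in WT by Acadvl (69.8 to 180 CPM).

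Against that direction, Cpt1a went from 213 CPM at index 0 to 117 at index 1 in WT and from 211 to 92.3 in SIRT1mKO. The liver-type and muscle isoforms of carnitine palmitoyltransferase 1 thus lay on opposite sides of 0. Suclg2 went from 112 to 48.8 CPM in WT and from 117 to 58.4 in SIRT1mKO, while its partner subunit Suclg1 went from 112 to 180 and from 119 to 188. Ppard and Ppargc1b were the other 2 members lower at index 1 in both genotypes. Of the cycle genes, the smallest shifts were those of Cs, Dlst and Fh1, at 0.10 to 0.28 on the log2 scale in either genotype. How far the cells at index 1 had differentiated and the level of these genes cannot be told apart with these libraries.

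**Figure D4:**
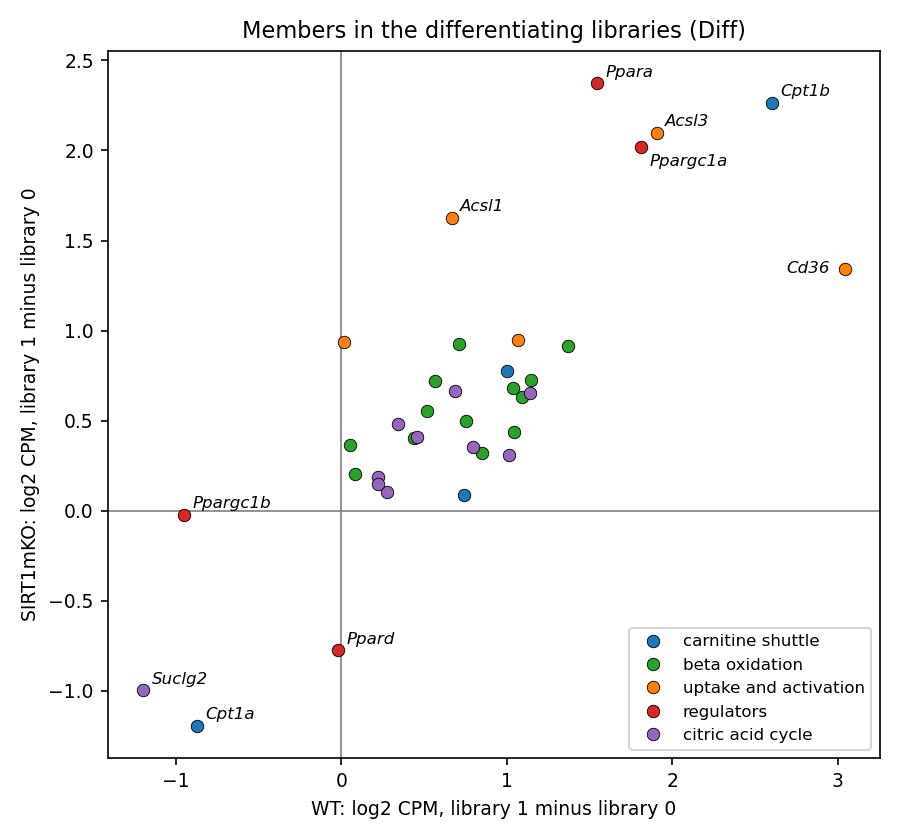
Log2 difference in CPM between Diff library 1 and Diff library 0 for the 36 members, WT on the x axis and SIRT1mKO on the y axis, coloured by role. The 32 members higher at index 1 in both genotypes fill the upper right, and Cpt1a, Suclg2, Ppard and Ppargc1b lie below 0 on both axes.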

How the data were processed

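Polyadenylated RNA of 18 satellite cell samples was analysed, and 10 ChIP-seq samples were not analysed here. The authors aligned to mm9, with Bowtie, TopHat and Cuffdiff among the tools in the submitters' processing notes (versions not given in the sources used here). Per the file headers, the 4 deposited tables give estimated counts (raw fragments) and FPKM per gene and library. Table conditions were matched to groups by their names, and the letter A was taken as proliferating because the other states were accounted for. Genes whose status was not OK in a library were left out (12 to 27 per table). Estimated counts were rounded and tested within each table by edgeR 4.0.16 in R 4.3.3 (TMM factors, filterByExpr with a minimum count of 10, robust quasi-likelihood F test, Benjamini-Hochberg over all genes tested, threshold 0.05). DESeq2 1.42.0 and limma 3.58.1 on log2(FPKM + 1) or log2(FPKM + 0.1), with FPKM of at least 1, were alternatives, as were upper-quartile factors, no filter, left-out libraries and the table index as a block. The edgeR script was tested on simulated counts. Levels across tables are CPM after 1 TMM scaling of all 18 libraries, with no test. The members and lists were chosen with earlier results of these data known. Every member could be named between WT states, and in each genotype comparison the 6 with the smallest p plus Ppargc1a, Cpt1a and Cpt1b. Other pathway genes were named by size (called, at least 5 CPM) or smallest p. In the FI table, libraries with the same index deviated together from their group means (correlations over genes 0.86, 0.70 and 0.55), so the index was taken to pair them there. Across index, WT library 1 with SIRT1mKO library 2 gave 0.55, and WT library 2 with SIRT1mKO library 1 gave 0.32. Index 0 against index 1 or 2 gave negative values. The correlations thus set index 0 apart and do not settle how index 1 and 2 pair. The same-index correlation was 0.81 in Cul, 0.81 in Diff and 0.44 in WT states, where 2 libraries per group give only 1 value and the index was not taken as a pairing. Libraries of a group differed by a chi-square of at least 26.3 per degree of freedom, so none were copies. Lists of markers (satellite cell, muscle differentiation, endothelial, leukocyte, fibroblast, adipocyte, erythroid) were summed in CPM. Leukocyte markers summed to 139 to 352 CPM in the FI table and 5.09 to 10.7 in Cul, and erythroid markers to 7.69 to 83.2 and 0.15 to 0.85.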

Additional observations from a re-analysis of the deposited data

Results flagged for a closer look

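Over 70 groups of 4 or 5 WT libraries scaled together over tables (35 members in FI and in Cul), 4 had a library whose gap to its nearest neighbour passed Dixon's 95% critical value, and chance flags about 1 in 20. Etfb and Ech1 were highest in Cul library 0 of WT states, at 135 and 79.7 CPM, where the next libraries held 52.2 and 33.8. That library also held the muscle differentiation markers, and their part in these values was not tested. Acsl4 in FI was highest in library 1 of WT states, 78.1 CPM against 54.1 in the next. Ppard in Cul was highest in WT library 1 of the Cul table, 96.1 CPM against 52.5.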

How the results depend on the processing

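Of the recomputed counts and medians, 71 under other settings and 82 with 1 library left out stayed within 1.5 times the main count or 1 SD of the main median, and 19 and 14 did not. Between WT states, DESeq2 called 11 members, limma on log2(FPKM + 1) called 3, and leaving out 1 library gave 0 to 18 members, 2063 to 8050 genes and a median of -0.34 to 0.34. Between genotypes, DESeq2 called 117 genes in FI, 1 of them a member, and 3 in Cul. With limma, 3 genes in FI and 9 in Cul were called on log2(FPKM + 0.1), and 1 and 5 on log2(FPKM + 1). Restricting FI to index 1 and 2, chosen after seeing the data, gave 1 gene. The median of members with 1 library left out ran from -0.023 to 0.20 in Cul and -0.25 to 0.44 in Diff.

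With the table index as a replicate block, edgeR called 11 members between WT states (3 higher, 8 lower), 3 genes in Cul and 147 in Diff, no member among the latter, while Plin2 in Diff was called at -1.15 (adjusted p = 0.0082). In FI, where the index was taken to pair the libraries, the block changed no edgeR call. DESeq2 with the block, chosen after seeing the data, called 6416 genes and 12 members between WT states, 251 genes in FI with 1 member, 390 in Cul and 99 in Diff.

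Signs turned between WT states for genes near 0. Acsl3 was at -0.010 with DESeq2, -0.063 with DESeq2 and the block, -0.019 and -0.015 with limma at a pseudocount of 0.1 and 1, -0.0048 with no filter, -0.027 with the block and -0.15 with upper-quartile factors. Upper-quartile factors gave -0.12 for Acads, -0.071 for Hadha, -0.073 for Hadhb and -0.021 for Ppard. Hadhb was -0.0087 with DESeq2 and the block and -0.0086 with limma on log2(FPKM + 0.1). With 1 library left out, WT states ranged from -0.34 to 0.34 for Acads, -0.49 to 0.36 for Acsl3, -0.48 to 1.19 for Etfb, -0.055 to 0.27 for Hadha, -0.49 to 0.49 for Hadhb, -0.19 to 0.52 for Idh3b, -0.23 to 0.89 for Idh3g, -0.040 to 0.40 for Ppard and -0.063 to 0.73 for Slc25a20. In Cul the range was -0.17 to 0.24 for Cpt1a, -0.63 to 0.11 for Cpt1b, -0.33 to 0.54 for Ppargc1a and -0.072 to 0.80 for Ucp2. In Diff it was -0.047 to 0.64 for Acadm, -0.25 to 1.35 for Acsl1, -0.77 to 2.34 for Acsl6, -0.84 to 0.39 for Cpt1a, -1.73 to 1.58 for Cpt1b and -1.10 to 1.36 for Ppargc1a. In FI it was -0.0016 to 0.39 for Ppargc1a. The cause of these changes was not tested. With 2 libraries per group in 3 of the 4 tables, a lone library left in a group was assumed to vary like the other group. Ppargc1a, Cd36 and Acot11 stood under 2 CPM in the Cul table, and the part of depth in their errors was not tested.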
